A study of Homo sapiens with 16 samples.

Results

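Belinostat, a hydroxamate inhibitor of histone deacetylases, was added to U87 cells of the AsiDNA group, and the open chromatin of the combination was set against that of AsiDNA with the drug's vehicle. The members were all peaks of these 2 lists on chromosomes 1 to 22 and X, 134865 peaks for the combination and 138273 for AsiDNA, which make 273138 of the 542393 peaks in the series' 4 lists. A combination peak was called gained when no AsiDNA peak overlapped it by at least 1 bp, an AsiDNA peak was called lost when no combination peak overlapped it, and the rest were called shared. U87 is an established human glioblastoma line. The series measured 16 NicE-seq libraries in 4 groups of 4, namely AsiDNA with belinostat, AsiDNA with DMSO, belinostat with no AsiDNA and DMSO with no AsiDNA, called here the combination, AsiDNA, belinostat and vehicle lists. Belinostat was given at 1 µM for 24 h, all cells were fixed with formaldehyde, and the labels give no dose or time for AsiDNA. The protocol text speaks of MTU87 and LTAU87 cells where the sample fields say U87, so how the cells of the AsiDNA groups were derived is not settled here. The 4 libraries of a group share 1 peak list. With 1 list a group there is no replicate spread and no test for any value below. The 95% intervals in brackets (Wilson) hold counting error and nothing else.

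Histone deacetylases remove acetyl groups from histone tails, and their inhibition raises acetylation and loosens the contact of histones with DNA. AsiDNA is a short DNA duplex whose end imitates a broken chromosome end, so that it occupies the sensors of DNA breaks. In NicE-seq a nicking enzyme and a DNA polymerase place biotin in DNA that is not protected by nucleosomes, and the captured fragments mark promoters, enhancers and other open sites. The lists carried the marks of the labelled line: 8 of 8 mesenchymal and astroglial genes, among them VIM, CD44, TNC, FN1, NES, AXL and S100A10, had a peak at an end of the gene in both lists. PTPRC of immune cells, EPCAM and CDH1 of epithelium, and PECAM1 and TIE1 of endothelium had none in either list. Counted over each marker list, immune genes had peaks at 2 of 5 in the combination and 2 of 5 in AsiDNA, epithelial at 1 and 1 of 4, endothelial at 1 and 0 of 3, neuronal at 2 and 3 of 4, and oligodendrocyte at 3 and 2 of 4.

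Gained and lost regions were many and mostly low in their lists. Printed here are 6 gene starts, the 3 of highest rank in each direction among those whose whole peak was gained or lost and lies over a known start, so that its bases can be read. HLA-DOB encodes a chain of a modulator of class II antigen loading, APBB1IP an adaptor that ties Rap1 to integrin activation, and ETDB a testis-expressed protein. IFI44 is an interferon-induced gene, ZCCHC12 encodes a zinc knuckle coactivator, and MSL3B is a relative of the dosage compensation gene MSL3. HLA-DOB, APBB1IP and ETDB starts were gained, and those of IFI44, ZCCHC12 and MSL3B were lost. Each window holds 250 bases before and 50 bases after the start (RefSeq, GRCh38.p14, gene strand, 5′ to 3′), with the bases inside the peak in capitals.
HLA-DOB, gained, chr6:32816953-32817252, minus strand: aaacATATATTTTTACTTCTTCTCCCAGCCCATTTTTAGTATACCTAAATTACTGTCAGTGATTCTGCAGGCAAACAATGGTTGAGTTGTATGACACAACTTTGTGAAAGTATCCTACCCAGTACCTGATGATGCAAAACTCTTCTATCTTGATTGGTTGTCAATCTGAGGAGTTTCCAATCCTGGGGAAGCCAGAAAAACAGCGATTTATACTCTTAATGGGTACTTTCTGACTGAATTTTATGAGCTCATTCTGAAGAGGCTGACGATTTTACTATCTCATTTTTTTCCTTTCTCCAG
APBB1IP, gained, chr10:26438091-26438390, plus strand: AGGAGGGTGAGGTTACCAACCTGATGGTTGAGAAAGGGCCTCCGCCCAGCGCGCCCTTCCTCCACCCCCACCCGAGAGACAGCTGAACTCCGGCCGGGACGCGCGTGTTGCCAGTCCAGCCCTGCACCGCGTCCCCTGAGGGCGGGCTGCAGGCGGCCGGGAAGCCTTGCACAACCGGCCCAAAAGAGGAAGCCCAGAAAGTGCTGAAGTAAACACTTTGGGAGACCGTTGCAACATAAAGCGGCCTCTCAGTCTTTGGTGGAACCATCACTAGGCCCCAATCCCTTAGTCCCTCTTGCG
ETDB, gained, chrX:135120477-135120776, minus strand: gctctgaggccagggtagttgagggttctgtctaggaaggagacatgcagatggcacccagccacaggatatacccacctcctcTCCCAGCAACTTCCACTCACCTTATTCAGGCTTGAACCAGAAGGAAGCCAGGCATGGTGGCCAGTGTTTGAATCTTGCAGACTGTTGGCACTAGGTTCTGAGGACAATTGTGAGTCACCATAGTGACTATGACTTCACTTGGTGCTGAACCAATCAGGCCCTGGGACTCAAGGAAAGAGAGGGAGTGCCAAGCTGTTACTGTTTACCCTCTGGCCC
IFI44, lost, chr1:78649539-78649838, plus strand: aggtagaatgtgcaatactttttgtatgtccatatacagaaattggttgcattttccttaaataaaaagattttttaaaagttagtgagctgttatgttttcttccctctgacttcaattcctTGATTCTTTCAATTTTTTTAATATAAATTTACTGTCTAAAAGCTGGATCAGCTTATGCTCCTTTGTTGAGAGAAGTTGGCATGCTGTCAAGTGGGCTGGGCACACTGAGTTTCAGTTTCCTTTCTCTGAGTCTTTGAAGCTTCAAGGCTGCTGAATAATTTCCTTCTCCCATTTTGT
ZCCHC12, lost, chrX:118823574-118823873, plus strand: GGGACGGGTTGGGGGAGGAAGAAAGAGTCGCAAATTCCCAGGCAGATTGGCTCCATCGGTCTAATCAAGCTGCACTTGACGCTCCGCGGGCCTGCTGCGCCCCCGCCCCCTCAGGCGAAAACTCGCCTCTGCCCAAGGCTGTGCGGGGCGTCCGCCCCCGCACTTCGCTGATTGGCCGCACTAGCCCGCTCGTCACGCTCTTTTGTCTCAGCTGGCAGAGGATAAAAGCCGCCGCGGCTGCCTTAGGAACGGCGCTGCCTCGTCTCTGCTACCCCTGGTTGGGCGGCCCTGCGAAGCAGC
MSL3B, lost, chr2:233868337-233868636, minus strand: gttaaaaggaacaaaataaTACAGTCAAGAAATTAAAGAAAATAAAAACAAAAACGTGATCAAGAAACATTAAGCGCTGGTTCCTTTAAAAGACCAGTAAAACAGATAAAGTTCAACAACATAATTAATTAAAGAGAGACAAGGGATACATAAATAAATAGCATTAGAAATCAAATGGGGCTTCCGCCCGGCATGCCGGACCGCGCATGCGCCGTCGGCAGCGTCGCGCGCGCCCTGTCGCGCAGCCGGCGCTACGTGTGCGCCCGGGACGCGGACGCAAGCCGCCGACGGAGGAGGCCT

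The peak covered 296 bases of the HLA-DOB window, all 300 bases of the APBB1IP window and 216 bases of the ETDB window, against 177, 300 and 281 bases of the IFI44, ZCCHC12 and MSL3B windows. The fold enrichment of a peak is the authors' peak caller's own value and is not scaled between lists. It was 8.49 at HLA-DOB in the combination list, 6.82 in the belinostat list and 4.34 in the vehicle list, so this start lacked a peak only in the AsiDNA list. At APBB1IP it was 7.35 in the combination list and 6.14 in the belinostat list, and at ETDB 6.93 and 6.49 in the same lists, with no vehicle peak at either start. These 2 starts were open in both lists with belinostat and in neither list without it. ZCCHC12 showed the reverse, with a fold of 7.94 in the AsiDNA list and 4.26 in the vehicle list and no peak in either list with belinostat. At IFI44 the AsiDNA peak had a fold of 9.11, the belinostat peak 8.11 and the vehicle peak 6.97, so among the 4 lists only the combination lacked a peak there. MSL3B, with folds of 7.47 in the AsiDNA list, 4.87 in the belinostat list and 5.33 in the vehicle list, likewise lacked one only in the combination. By base composition the windows ranged from 35.0% GC at IFI44 to 65.7% at ZCCHC12.

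Belinostat on AsiDNA gained 24809 peaks, 18.4% of the combination list (interval 18.2 to 18.6), and lost 28879, 20.9% of the AsiDNA list (20.7 to 21.1). The ratio of gained to lost was 0.859 (0.845 to 0.874), against 1.34 for belinostat over vehicle, where 33268 peaks were gained and 24751 lost. The combination list was the shorter of its pair and the belinostat list the longer of its own. With both lists kept at equal length the ratio was 0.974 on AsiDNA. Gained peaks had a median width of 265 bp and covered 7.39 Mb, and lost peaks had a median of 260 bp and covered 8.58 Mb. Shared peaks were wider, with medians of 441 bp in the combination list and 460 bp in the AsiDNA list. Gains and losses also stood low in their own lists, at a median percentile of 17.8 for gained and 21.1 for lost peaks, where 100 is the highest fold enrichment. Above the median rank (percentile 50) of the combination list stood 1865 gained peaks, or 7.52%, and above that of the AsiDNA list 3301 lost peaks, or 11.4%. Only 9 gained and 49 lost peaks reached percentile 90. The median distance to the nearest peak of the other list was 4177 bp for gained and 4962 bp for lost peaks, and 18.3% of gained and 17.8% of lost peaks had such a peak within 1000 bp.

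The lists without AsiDNA share no library with this comparison, and they held many of the same regions. A belinostat peak overlapped 61.8% of gained peaks (61.2 to 62.4) and 23.9% of lost peaks (23.5 to 24.4). A vehicle peak overlapped 21.7% of gained peaks and 47.7% of lost peaks (47.1 to 48.3). Gained peaks thus met a belinostat peak without a vehicle peak in 45.9% of cases and the reverse in 5.72%, whereas lost peaks met a vehicle peak without a belinostat peak in 32.9% and the reverse in 9.18%. Shared peaks of the combination list were overlapped by a belinostat peak in 93.3% and by a vehicle peak in 91.6%. Overlap with the lists without AsiDNA was larger at higher rank, for the matching list and for the other one. In the lowest decile of the combination list 54.2% of peaks were gained, and 42.7% of those gains lay on a belinostat peak. In decile 6 it was 8.22% gained and 94.0% of those on a belinostat peak, and from decile 7 upward this share was 97.1% or more. Losses ran the same way against the vehicle list, with 28.6% on a vehicle peak in the lowest decile of the AsiDNA list and 95.9% or more from decile 8 upward. Gains above percentile 50 were open with belinostat but not with vehicle in 1098 of 1865 cases, and losses above percentile 50 were open with vehicle but not with belinostat in 1848 of 3301. Peaks found in neither list without AsiDNA made up 32.5% of gained and 43.1% of lost peaks, but 3.54% and 10.2% above percentile 50.

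**Figure D1:**
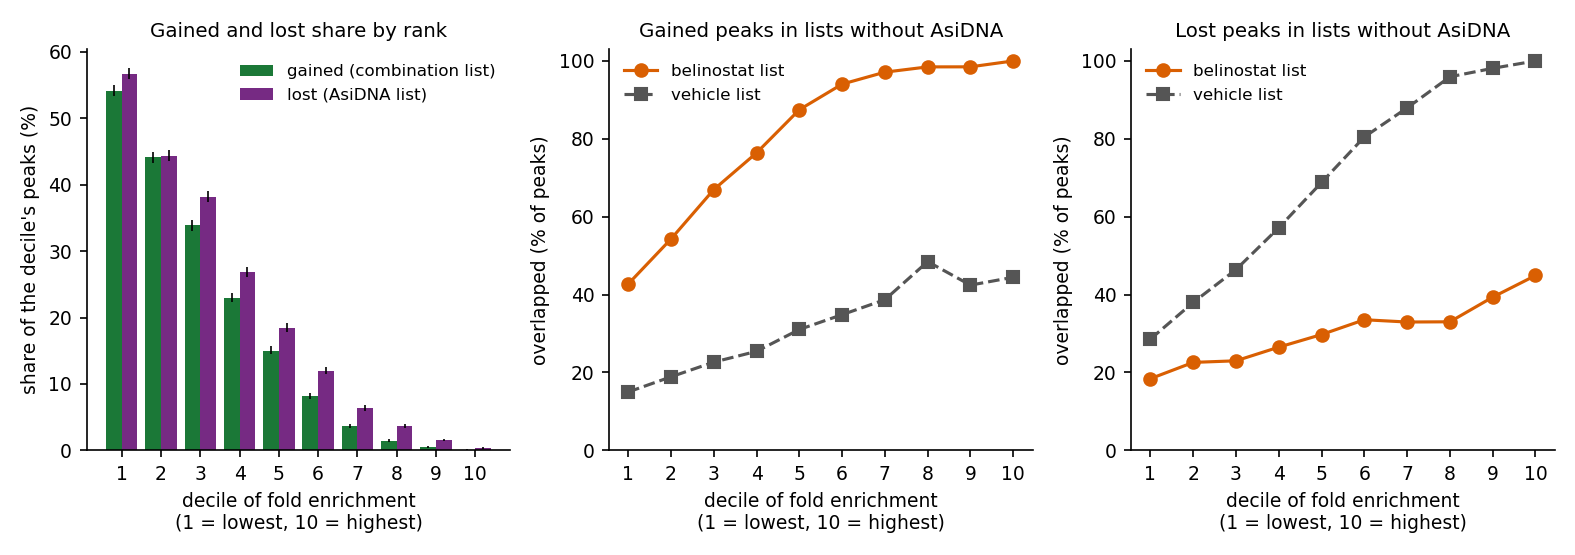
Left, the share of combination peaks gained and of AsiDNA peaks lost in each decile (1 to 10) of the list's own fold enrichment, with Wilson 95% intervals; middle and right, the share of these gained and lost peaks that a belinostat or a vehicle peak overlaps. Gained shares fall to 0.0667% and lost shares to 0.354% in the highest decile, where all 9 gained peaks lie on a belinostat peak and all 49 lost peaks on a vehicle peak.

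The 8 gained peaks of highest percentile all had a belinostat peak, and 5 of them had no vehicle peak. The strongest lay in PCBD2, which encodes a cofactor-recycling dehydratase, at chr5:134927005-134927205 of hg38, a narrow peak of 201 bp. Its fold was 24.1 in the combination list and 23.4 in the belinostat list. The next lay far from any protein-coding gene, at chr17:53106165-53106393, with folds of 20.8 and 22.7 in the same lists. It was 229 bp wide, and its −log10 q was 89.4, against 375 at the PCBD2 peak. Whether reads can be placed in a single way at these narrow peaks was not tested. In SGCB, a dystrophin-complex sarcoglycan gene, a 391 bp peak had a fold of 15.9 in the combination list and 9.04 in the belinostat list, and in SPICE1, a centriole and spindle gene, the folds were 14.2 and 14.9. None of these 4 regions had a peak in the AsiDNA or vehicle list. In SAMSN1, which encodes an adaptor of blood cells, the fold was 15.0 in the combination list, 13.3 in the belinostat list and 4.97 in the vehicle list. A region 80.5 kb from GLI3, a Hedgehog pathway transcription factor, had 13.8, 13.4 and 4.26 in the same order, and one 13.5 kb from ZNF330 had 13.6, 11.3 and 4.49. The last of the 8, 146.9 kb from OXR1, had a fold of 13.6 in the combination list and 11.1 in the belinostat list and no peak in the vehicle list.

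Among the 8 lost peaks of highest percentile, 7 had a vehicle peak and no belinostat peak. The first lay in the phosphatase gene PTPDC1, at chr9:94042551-94042851, with a fold of 16.5 in the AsiDNA list and 9.69 in the vehicle list. The second lay in NCOR1, the nuclear receptor corepressor that recruits HDAC3, at chr17:16178868-16179209, with folds of 15.9 and 11.1 in the same lists. The nearest combination peak was 35.9 kb away. A region 167.7 kb from PRDM1, a transcriptional repressor gene, had folds of 15.6 in the AsiDNA list and 10.97 in the vehicle list, and one in DNM3, a dynamin gene of membrane fission, had 15.2 and 10.6. Regions between genes nearest to IL7, NUDT12 and IGFBP7 had folds of 14.6 to 15.4 in the AsiDNA list and 8.02 to 12.5 in the vehicle list. TCF7L1, a transcription factor gene of the Wnt pathway, was the exception. Its lost peak had a fold of 13.8 in the AsiDNA list, 3.04 in the belinostat list and 11.7 in the vehicle list, and a combination peak lay 1.22 kb away.

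Of the shared combination peaks, 106447 (96.7%) overlapped exactly 1 AsiDNA peak that overlapped no other, and these pairs were compared. Widths correlated at a Pearson r of 0.80 on the log2 scale and ranks at a Spearman rho of 0.77 across pairs, which share libraries and base composition and are not replicates. Summits lay a median of 29 bp apart. Combination peaks were slightly narrower, with medians of 440 bp against 457 bp in the AsiDNA list and a median log2 width ratio of −0.056 (−0.058 to −0.054). More than 1.5 times wider in the combination were 6382 pairs, 6% of those compared, and more than 1.5 times narrower were 9871, 9.27%. Belinostat over vehicle ran the other way, at a median log2 width ratio of 0.021, with 10.1% of pairs wider and 7.12% narrower. Rank among the pairs was more than 20 percentile points higher in the combination for 14302 pairs, 13.4%, and more than 20 points lower for 14577, 13.7%.

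Many rank changes were also seen without AsiDNA. Over 90388 regions paired in both comparisons, 49.1% of the regions that were over 20 points higher in the combination than in AsiDNA were also over 20 points higher with belinostat than with vehicle, against 14.1% of all these regions. For regions over 20 points lower it was 55.4%, against 14.3% of all. The opposite direction was seen in 1.36% and 1.88%. Regions over 1.5 times wider were also wider with belinostat over vehicle in 36.6%, against 9.29% of all, and narrower regions were also narrower in 24.8%, against 6.48%. Across these regions the rank differences of the 2 comparisons had a Pearson r of 0.65 and a Spearman rho of 0.61, and the log2 width ratios 0.35 and 0.33.

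Gene starts narrowed and climbed in rank. At pairs whose summit lay within 1000 bp of a protein-coding gene's start (either end where the strand was not known), 10988 in all, median widths were 768 bp in the combination and 880 bp in AsiDNA. The median log2 width ratio there was −0.12, against −0.051 in gene bodies and −0.041 between genes. Rank at gene starts was a median of 5.13 points higher in the combination, with 12.9% of pairs over 20 points higher and 3.91% over 20 points lower, against medians of 0.079 points in gene bodies and −0.11 points between genes. Without AsiDNA the starts had a median of −0.053 in log2 width and 5.03 points in rank. Along the GC content of the promoter, the rank difference was a median of 2.44 points at the 1285 paired starts of up to 54% GC, and 5.93, 6.72 and 6.62 points in the bins up to 62.7%, 70.3% and 94% GC, and without AsiDNA 2.93, 5.03, 6.29 and 6.68 points.

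**Figure D2:**
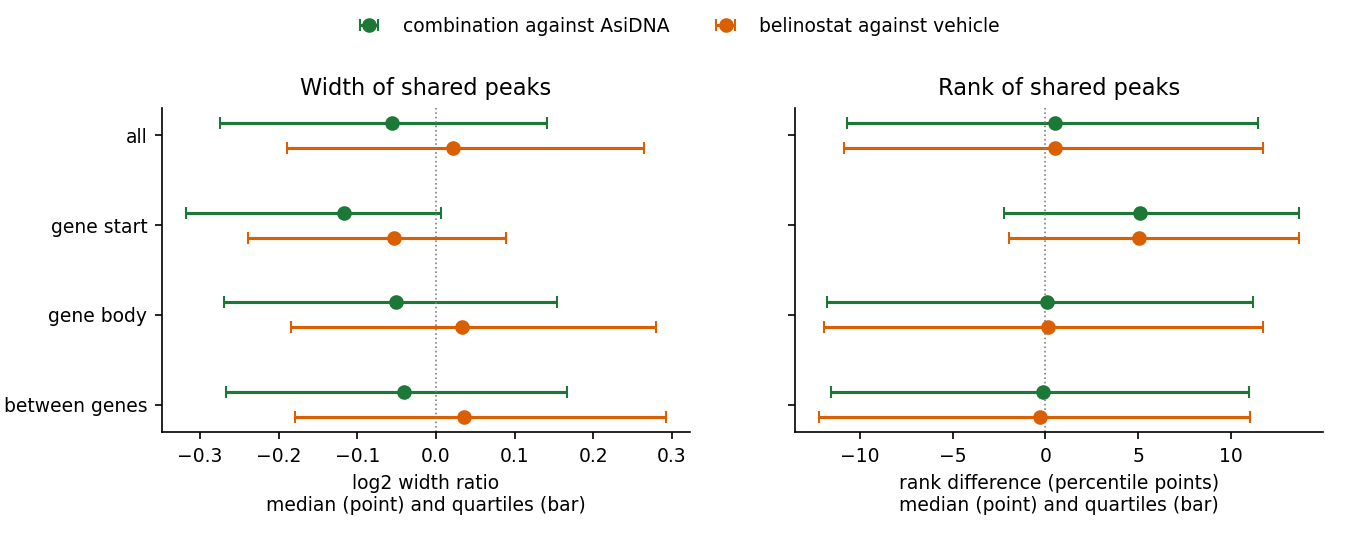
Medians (points) and quartiles (bars) of the log2 width ratio, left, and of the rank difference in percentile points, right, for peaks paired between the combination and AsiDNA lists and between the belinostat and vehicle lists, by the place of the summit. Gene starts have the lowest median width ratio and the highest median rank difference in both comparisons.

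Among pairs whose peaks stood above percentile 50 of each whole list, the 6 largest rises and falls in rank were over 50 points, where the rank difference is taken among the pairs alone. In EYA2, a phosphatase and transcriptional coactivator, a peak at chr20:46971186-46971703 had a fold of 18.0 in the combination list, 6.14 in the AsiDNA list, 16.2 in the belinostat list and 4.20 in the vehicle list, and its rank was 54.8 points higher in the combination than in AsiDNA. In BMPER, which encodes a regulator of bone morphogenetic proteins, the lists with belinostat were likewise the higher ones, with folds of 18.7 in the combination, 6.31 in AsiDNA, 15.4 in belinostat and 7.56 in vehicle. In PTPRE, a receptor phosphatase gene, they were 16.6, 6.03, 13.5 and 8.00, and in ARFGEF3 16.9, 6.07, 16.6 and 4.97 in the same list order. All 6 of the largest rises, with a region in the LINC02210-CRHR1 locus and another 50.8 kb from VAPA, were thus high in both lists with belinostat. The 6 largest falls were low in both. In BANK1, a B-cell scaffold gene, a peak at chr4:101970496-101971042 had a fold of 6.46 in the combination, 16.5 in AsiDNA, 5.10 in belinostat and 13.5 in vehicle, and its rank difference, combination minus AsiDNA, was −56.8 points. A further BANK1 peak had folds of 6.46, 15.4, 7.19 and 14.2 in that order. A region 24.9 kb from KAT6B, a histone acetyltransferase gene, had 6.46, 16.2, 6.26 and 13.5, and one in CTNND2, a delta-catenin gene of neurons, had 6.49, 15.8, 4.85 and 12.2. The others lay between genes nearest to CETN3 and HEMK2.

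All 6 of the largest widenings were also wider with belinostat than with vehicle, and all 6 of the largest narrowings narrower. In PTPN7, a phosphatase gene of lymphoid cells, the shared peak was 911 bp wide in the combination, 247 bp in AsiDNA, 783 bp in belinostat and 324 bp in vehicle. A peak 57.1 kb from NPTX2, a neuronal pentraxin gene, was 894, 286, 961 and 286 bp wide in that order. A peak 5.68 kb from STK38L was 801 bp in the combination and 241, 401 and 239 bp in the other lists. In CERS6, a ceramide synthase gene, the peak was 1006 bp wide in the combination, 285 bp in AsiDNA, 689 bp in belinostat and 261 bp in vehicle, yet its rank difference was −35.3 points. On the narrow side, a peak in LRP1B was 279 bp wide in the combination, 1008 bp in AsiDNA, 602 bp in belinostat and 1019 bp in vehicle, and one in TENM3, a teneurin gene, was 228, 816, 439 and 787 bp. The largest narrowing was 779.5 kb from SLITRK1, with widths of 260 bp in the combination, 1086 bp in AsiDNA, 721 bp in belinostat and 1039 bp in vehicle.

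At gene starts complete gains and losses were rare. Of 19970 protein-coding genes, 347 (1.74%) had a combination peak and no AsiDNA peak within 1000 bp of the start, and 483 (2.42%) had the reverse. Open in both lists were 12588, and in neither 6552. Either end stood for the start in the 4159 genes whose start was not known. The start was known for 231 of the gained and 345 of the lost ones. Of the gained starts, 160 (46.1%) were also gained with belinostat over vehicle and 24 (6.92%) were lost there. Of the lost starts, 142 (29.4%) were also lost without AsiDNA and 41 (8.49%) were gained there. By place of the summit, 4.28% of combination peaks at gene starts were gained (532 of 12432), against 19.3% in gene bodies and 20.4% between genes. Lost shares were 7.60% at starts, 21.7% in gene bodies and 22.7% between genes. Gained peaks lay a median of 40.6 kb and lost peaks 53.9 kb from the nearest start, and without AsiDNA 38.3 and 59.0 kb.

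Several of the starts ranked highest were the border of a wide peak that both lists held, 3 of 10 gained and 10 of 10 lost. Starts whose whole peak was gained or lost were therefore ranked separately, after the values had been seen, and numbered 332 and 442. These peaks lie within 1000 bp of the start. Among the known starts named next, only that of NREP lies inside its peak. The homeobox gene TPRX2 led the gained starts with a fold of 9.003 in the combination list, 11.6 in the belinostat list and 5.44 in the vehicle list. ANGPTL7, an angiopoietin-like factor of the eye, had 8.77 in the combination and 10.2 in the belinostat list, and EXTL1, a heparan sulphate synthesis gene, had 8.05 and 6.06, with no peak in the lists without belinostat. GOLGA6C had 8.74 and 12.6 in the same lists, and it belongs to a family of near-identical copies between which reads may have been divided. The shared start of CIDEB, a lipid droplet gene, and LTB4R, the leukotriene B4 receptor, had 7.85 and 6.95 in these lists. MEF2D, a transcription factor that class IIa deacetylases repress, had 7.39 in the combination, 5.82 in the belinostat and 3.68 in the vehicle list. SLC26A9, an epithelial anion transporter, led the lost starts with a fold of 9.17 in the AsiDNA list and 7.68 in the vehicle list. NREP had 7.24 in the AsiDNA and 4.73 in the vehicle list, and TRIML1 had 7.08 and 7.17. A peak at an end of DCN, the matrix proteoglycan decorin, had 6.77 and 4.97. None of these had a peak in a list with belinostat. The strand of DCN was not known here, so this end may not be its start.

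Of the 15811 starts with a RefSeq window of 300 bases, the median GC content was 58.0% at 231 gained starts, 60.3% at 345 lost starts, 65.3% at starts open in both lists and 55.7% at starts open in neither. Motifs were searched on both strands as plain letters, and none of the 5 given here holds another. The GC box GGGCGG of SP and KLF factors was present in 37.7% of gained and 48.99% of lost starts, against 70.7% of starts open in both and 58.5% of all. The ETS letters CCGGAA were present in 9.52% of gained, 8.99% of lost, 30.4% of both-open and 22.8% of all starts. Gained and lost starts were in this closer to starts open in neither list, at 35.6% for the GC box and 9.17% for ETS. The AP-1 letters TGANTCA were in 8.66% of gained and 7.25% of lost starts, against 4.78% of both-open and 5.76% of all, and TATAAA in 13.0% and 13.9%, against 5.76% and 9.64%. Starts open in neither list held the AP-1 letters in 7.47% and TATAAA in 17.0%, so here too gained and lost starts were closer to them than to both-open starts. Among starts open in both lists, CCAAT, the box of NF-Y, was present in 46.6% of the 1211 whose rank was over 20 points higher in the combination. It was present in 27.5% of the 284 whose rank was over 20 points lower, against 37.4% of both-open and 36.3% of all starts. Of the printed windows, HLA-DOB holds 2 CCAAT boxes and 1 TATAAA, ETDB holds 1 AP-1 match, and ZCCHC12 holds 3 GC boxes and 2 CCAAT boxes.

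Genes were ranked by the gained and lost peaks within their span plus 10 kb. At least 1 gained peak was held by 9167 of the 19970 genes (45.9%) and at least 1 lost peak by 9362 (46.9%), so a single peak does not set a gene apart, and long genes led both rankings. KAZN, which encodes the cytoskeletal protein kazrin and spans chr1:13892824-15118043, held the most gained peaks, 24 of its 78 combination peaks, and lost 13 of 66 AsiDNA peaks. PRKG1, the cGMP-dependent protein kinase gene at chr10:50990888-52298350, held the most lost peaks, 37 of 123, and gained 20 of 108. TENM2, a teneurin of synaptic contacts, gained 19 of 70 and lost 19 of 70, so it stood high in both rankings with no net change. The other genes with most gained peaks were TMEM178B, with 18 gained and 6 lost, the neuron navigators NAV2, with 17 and 10, and NAV1, with 15 and 6, the synapsin gene SYN3, with 16 and 3, the calmodulin-binding activator CAMTA1, with 16 and 14, the SRC family kinase FYN, with 15 and 7, and SETBP1, with 15 and 5. The other genes with most lost peaks were the cyclic AMP phosphodiesterase PDE4D, with 12 gained and 28 lost, the oxidoreductase WWOX, with 15 and 24, the ERBB ligand NRG1, with 8 and 24, TENM3, with 14 and 22, T-cadherin CDH13, with 15 and 21, THSD4, with 4 and 20, the exocyst subunit EXOC4, with 7 and 19, and the SLIT receptor ROBO1, with 4 and 19.

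Of 814 genes with 20 or more peaks in either list, 262 gained more than they lost and 474 lost more than they gained. EYA2, at chr20:46894843-47188844, gained 14 of 36 combination peaks and lost 0 of 22 AsiDNA peaks. TNS3, which encodes a tensin of focal adhesions and lies at chr7:47275154-47582586, gained 13 of 37 and lost 0 of 24. The gained folds in EYA2 ran between 2.55 and 6.56, so these were low peaks in a gene whose shared peaks also stood a median of 5.14 points higher in rank. NHS, an actin regulator gene, gained 13 and lost 1, CDH23, a cadherin of hair cell tip links, gained 12 and lost 1, the MEK scaffold gene KSR2 gained 14 and lost 3, and the RAS GTPase activator gene DAB2IP gained 12 and lost 2. At the other end, ANK2, the ankyrin-B membrane scaffold gene at chr4:112705622-113383736, gained 1 of 32 and lost 17 of 48. CADPS2, a vesicle priming gene, gained 2 of 21 and lost 18 of 37, or 48.6%. PCDH9, a protocadherin of neurons, gained 1 and lost 16, the centrosome gene CEP112 gained 1 and lost 15, and MAPK10, which encodes the neuronal kinase JNK3, gained 1 and lost 15. In ANK2, 11 of the 17 lost peaks had a vehicle peak and 7 a belinostat peak, and 27 of its 31 paired peaks were narrower in the combination. In EYA2, 10 of the 14 gained peaks had a belinostat peak and 3 a vehicle peak.

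**Figure D3:**
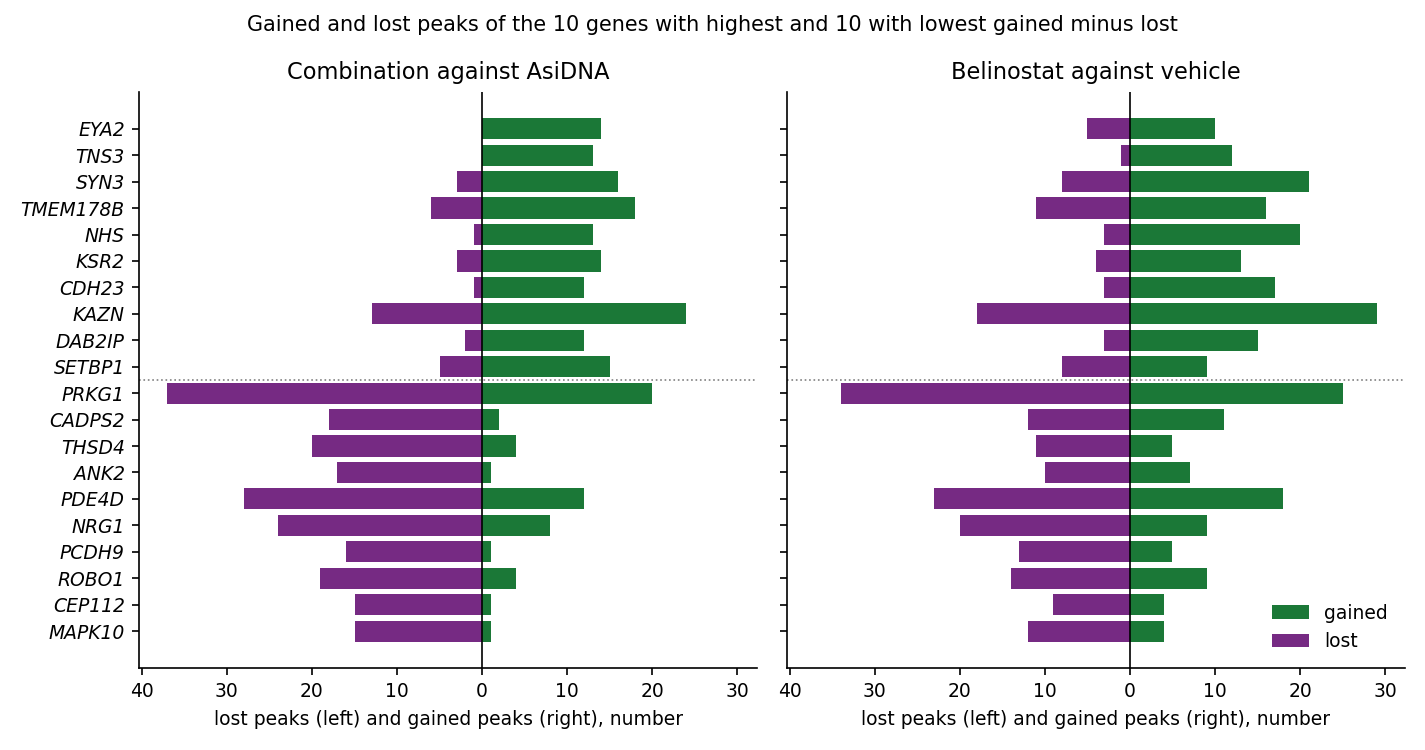
Numbers of gained (right) and lost (left) peaks within gene span plus 10 kb for the 10 genes with the highest and the 10 with the lowest gained minus lost on AsiDNA, for the combination against AsiDNA (left panel) and belinostat against vehicle (right panel). EYA2 gained 14 and lost 0 on AsiDNA and gained 10 and lost 5 without it, and ANK2 gained 1 and lost 17 on AsiDNA and gained 7 and lost 10 without it.

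All 10 genes of highest and all 10 of lowest net count kept their sign for belinostat over vehicle. Without AsiDNA the counts were 10 gained and 5 lost for EYA2, 12 and 1 for TNS3, 20 and 3 for NHS, 7 and 10 for ANK2, and 11 and 12 for CADPS2. Over the 814 genes, 223 of the 262 with a positive net count were also positive without AsiDNA, and 240 of the 474 with a negative one were also negative, where 441 of all 814 were positive and 281 negative. Net counts of the 2 comparisons had a Pearson r of 0.61 and a Spearman rho of 0.58 across these genes, which share gene length and base composition. WWOX and CDH13 went opposite ways: WWOX had 15 gained and 24 lost on AsiDNA and 18 and 16 without it, and CDH13 had 15 and 21 on AsiDNA and 25 and 15 without it. Longer genes had lower net counts, with a Spearman rho of −0.24 between length and net count.

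The gained and lost peaks of the named genes differed in how many were seen without AsiDNA. In NHS 12 of 13 gained peaks lay on a belinostat peak and 2 on a vehicle peak, and in NAV1 12 of 15 and 3. In KAZN it was 13 of 24 and 6, and in TMEM178B, whose gained folds did not exceed 4.75, 8 of 18 and 2. Among the losses, MAPK10 had 10 of 15 on a vehicle peak and 1 on a belinostat peak, NRG1 18 of 24 and 5, and PCDH9 11 of 16 and 3, counted in the vehicle and then the belinostat list. CADPS2 had 5 of 18 and 3, a smaller part on vehicle peaks than in the other 3 genes. Some named genes showed little or no such lean. Of 21 lost CDH13 peaks, 6 lay on a vehicle peak and 6 on a belinostat peak. Of 12 gained PDE4D peaks, 8 lay on a belinostat peak and 7 on a vehicle peak, and of 4 gained THSD4 peaks 1 and 2. Paired peaks moved with the count in some genes and not in others. In DAB2IP the 16 pairs had a median log2 width ratio of 0.37, with a median rank difference of −6.04 points. In TNS3 the 24 pairs were wider, at 0.19, and higher, at 7.73 points, and in FYN the 25 pairs were 8.18 points higher with a width ratio of −0.030. In ANK2 the 31 pairs were narrower, at −0.24, and lower, at −8.35 points, and ERBB4, in which 12 of 17 pairs were lower, had −10.1 points.

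**Figure D4:**
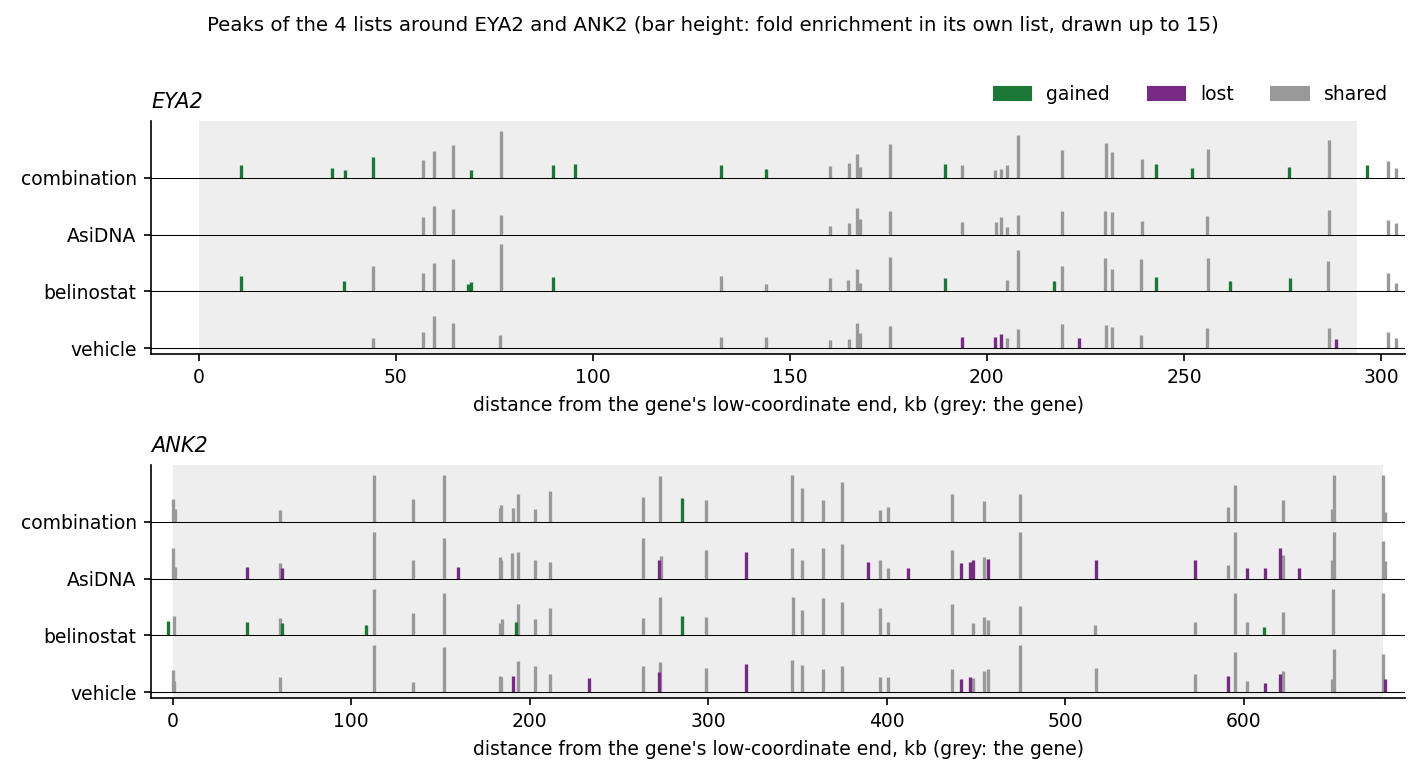
Peaks of the 4 lists along EYA2 and ANK2, by distance in kb from the gene's end of lower coordinate, with the gene in grey and the height of a bar giving the fold enrichment in its own list up to 15. Green and purple mark peaks that the other list of the pair lacks (combination and AsiDNA, belinostat and vehicle): EYA2 has 14 such peaks in the combination list and 0 in the AsiDNA list, and ANK2 has 1 and 17.

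Over the 11 histone deacetylases, belinostat's own targets and their partners, 16 of 118 combination peaks were gained (13.6%, 8.52 to 20.9). Of their 118 AsiDNA peaks 19 were lost (16.1%, 10.6 to 23.8). HDAC9, which encodes a class IIa deacetylase, held 8 of the gained and 7 of the lost peaks, and HDAC1 gained 0 and lost 2. Of the 8 gained HDAC9 peaks, 7 lay on a vehicle peak and 3 on a belinostat peak. Over the 23 genes of deacetylase corepressor complexes 12.2% of peaks were gained (8.17 to 17.7) and 17.9% lost (13.2 to 23.9). The gained share over all peaks, 18.4%, lies above that gained interval. In this list TBL1X, a subunit of the NCOR complex, gained 4 and lost 0, and MTA3, of the NuRD complex, gained 1 and lost 7. Among the 16 acetyltransferase and BET genes 14.8% were gained and 18.1% lost. There KAT6B gained 2 and lost 6, and NCOA1, a nuclear receptor coactivator, gained 0 and lost 5. The 15 genes known to respond to deacetylase inhibitors had 8 gained of 67 peaks (11.9%, 6.18 to 21.8) and 12 lost of 70 (17.1%, 10.1 to 27.6). The shares over all peaks, 18.4% and 20.9%, lie inside the intervals of these 15 genes. These genes had a median length of 6.41 kb, and over all genes 4.28% of peaks at starts were gained and 7.60% lost. The gelsolin gene GSN gained 2 and lost 5.

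The DNA repair lists are set beside the shares over all peaks, 18.4% gained and 20.9% lost. Over 16 end-joining genes 12.9% were gained (7.68 to 20.8) and 12% lost (6.999 to 19.8), and XRCC6, the Ku70 subunit that binds broken ends, gained 0 and lost 3. Over 19 homologous recombination genes 17.8% were gained (12.5 to 24.6) and 23.8% lost (17.8 to 30.9), with 14 gained and 18 lost in RAD51B alone. Over 16 genes of PARP and single-strand break repair 22.5% were gained (14.7 to 32.8) and 13.7% lost (7.61 to 23.4), and the ligase gene LIG3 gained 3 of its 5 combination peaks and lost 0 of 2, with no gain or loss without AsiDNA. The 16 checkpoint genes had 9 gained of 67 peaks (13.4%, 7.23 to 23.6) and 8 lost of 64 (12.5%, 6.47 to 22.8). MDM4, a p53 inhibitor, gained 2 and lost 0. The 16 p53 targets had 10 gained of 84 (11.9%, 6.60 to 20.5) and 13 lost of 84 (15.5%, 9.27 to 24.7). GADD45A, a stress gene, and FAS, a death receptor, each gained 0 and lost 3.

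Over 20 receptor tyrosine kinase genes 16.5% of peaks were gained and 20.4% lost, near the shares over all peaks. A gained peak was held by 12 and a lost one by 15 of these genes, against 45.9% and 46.9% of all genes. EGFR gained 7 and lost 3, against 13 and 1 without AsiDNA. MET, the hepatocyte growth factor receptor, and ERBB4, a neuregulin receptor, each gained 1 and lost 8. Of 8 lost peaks, MET had 5 on a vehicle peak and 2 on a belinostat peak. The 20 mesenchymal glioma genes had 45 gained of 268 peaks (16.8%) and 51 lost of 271 (18.8%), near the shares over all peaks, with 6 gained and 5 lost in FN1 and 3 gained and 8 lost in WWTR1, the TAZ coactivator. Of the 17 lists, AP-1 and early response factors had the lowest lost share, with 9.89% of peaks lost (5.29 to 17.7) and 17.3% gained, and 12 of 18 genes held a gained peak, against 45.9% of all genes. These genes are short, with a median of 7.18 kb, and lost shares at gene starts were 7.60% over all genes. FOSL2 and EGR4 each gained 3 and lost 0 on AsiDNA, and 2 and 0 without it. In the G1 list of 19 genes 11.3% were gained (6.45 to 19.2) and 19.05% lost (12.7 to 27.6). CCND1, the cyclin D1 gene, gained 3 and lost 0, and CDK6, its kinase partner, gained 1 and lost 9. The transcription factor E2F1 gained 0 and lost 3.

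Common fragile site genes, which are long and break under replication stress, and synaptic adhesion genes had the highest lost shares of the 17 lists. Over 13 common fragile site genes 18.7% of peaks were gained and 28.5% lost (23.7 to 33.8), with 9 of the 13 net negative, and 46 of all 70 genes over 800 kb were net negative too. PARD3B, a polarity gene, gained 5 and lost 14. Over 22 neuronal and synaptic adhesion genes 18.2% were gained and 25.8% lost (21.3 to 30.7). NEGR1, a neuronal growth regulator, gained 2 and lost 12, and the scaffold MAGI2 gained 5 and lost 13. Over all peaks 20.9% were lost. Taken per gene, the median lost share was 25.6% in the fragile site list and 28.3% in the synaptic adhesion list, whose genes had a median length of 963 kb. Over all protein-coding genes with peaks the median per gene was 9.09%, and it was 19.4% among the 814 genes with 20 or more peaks. In the interferon and nucleic acid sensing list of 22 genes 20.5% were gained (12.9 to 31.2) and 14.3% lost (7.95 to 24.3). RIGI, a sensor of viral RNA, gained 3 and lost 0, and IFI44L and MX1, both interferon-induced, gained 0 and lost 2, where 1 of the IFI44L peaks is the lost IFI44 start printed above, which lies within its 10 kb margin. The 16 BCL2 family genes had 11 gained of 90 peaks (12.2%, 6.96 to 20.6) and 12 lost of 90 (13.3%, 7.79 to 21.9). The shares over all peaks, 18.4% and 20.9%, lie inside the intervals of the BCL2 family, and the median length of these genes was 16.9 kb. BMF, which promotes apoptosis, gained 2 and lost 0.

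Chromosomes differed in the balance. Gained peaks outnumbered lost ones on chromosome 19, at a ratio of 1.29 (1.16 to 1.44), chromosome 22, at 1.22 (1.07 to 1.40), and X, at 1.12 (1.00 to 1.26). Chromosomes 13 and 4 were lowest, at 0.686 (0.623 to 0.755) and 0.699 (0.645 to 0.757). The gene-rich chromosome 19 lost 15.1% of its AsiDNA peaks, the smallest share, and the gene-poor chromosome 13 lost 24.98%, the largest. Across the 23 chromosomes, which share the same 2 lists, the ratio had a Spearman rho of 0.83 with genes per Mb and of 0.92 with the same ratio for belinostat over vehicle. Chromosome 19 was the highest there too, at 2.45. With only peaks of −log10 q of 5 or more the ratio on chromosome 19 was 1.94, against 0.958 over all chromosomes.

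**Figure D5:**
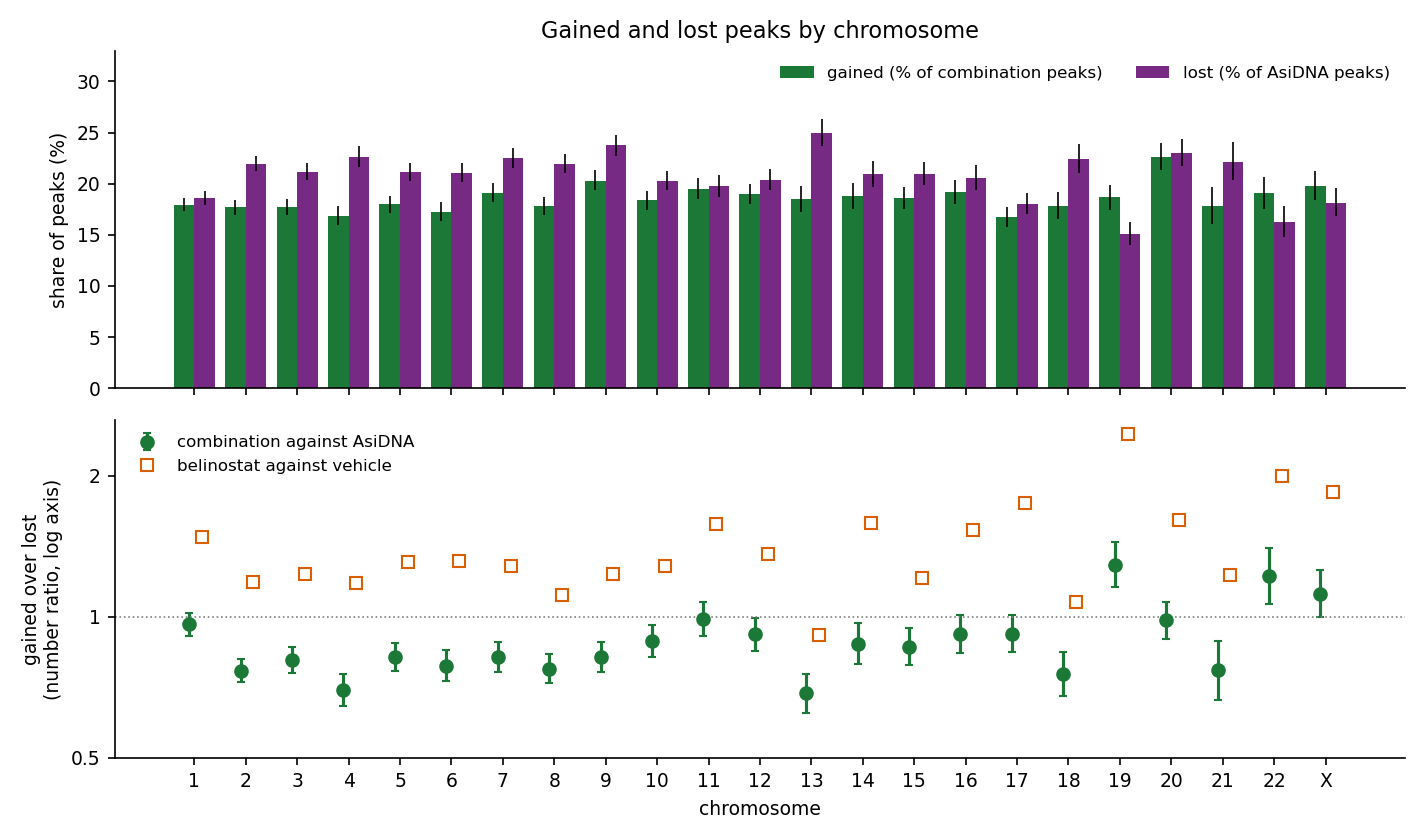
Top, the share of combination peaks gained and of AsiDNA peaks lost on each chromosome, with Wilson 95% intervals; bottom, the ratio of gained to lost numbers on a log axis, for the combination against AsiDNA with intervals and for belinostat against vehicle. Chromosomes 19, 22 and X lie above 1 on AsiDNA, and chromosome 13 is lowest in both comparisons.

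Within chromosomes the changes gathered in some 1 Mb windows. The window chr11:69000001-70000000, with CCND1 and the fibroblast growth factor genes FGF19, FGF4 and FGF3, gained 29 and lost 5 peaks, and 30 and 7 without AsiDNA. The window of TNS3 on chromosome 7 gained 28 and lost 6, chr1:30000001-31000000, with LAPTM5 and SDC3 among its genes, gained 25 and lost 3, and the window of MN1 on chromosome 22 gained 29 and lost 9. The 8 windows of largest net loss held no protein-coding gene. The first, chr9:44000001-45000000, gained 62 and lost 154, and chr2:92000001-93000000 gained 26 and lost 81. All windows without a protein-coding gene together lost 34.6% of their AsiDNA peaks and gained 22.4% in the combination, against 20.2% and 18.2% elsewhere. They held 7.99% of all lost and 5.11% of all gained peaks. Reads from repeated sequence can be placed in several ways, and how such reads were treated is not given in the sources used here. Outside these windows 23542 peaks were gained and 26572 lost, with a ratio of 0.886, against 0.549 inside them.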

How the data were processed

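Per the submitters' processing notes, reads were handled with MACS2, Bowtie2, deepTools, SAMtools, Trim Galore 0.5.0 and Picard on hg38. What options were set and how libraries became 1 list per group was not given in the sources used. The deposited lists give each peak a fold enrichment, which is a ratio over background set by the authors' peak caller. The authors' q-values, on the −log10 scale, were none under 1.30 and served as a filter. Read depth is unknown.

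Fold enrichment was ranked only within a list, and pairs were ranked among the same peaks in both lists. Genes, starts and promoter windows came from RefSeq (GRCh38.p14, the same assembly as hg38). Of 19970 protein-coding genes, 15811 had a known start, and either end was used for the other 4159. All 290 genes of 17 lists were matched.

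Named genes were the 10 with most gained and most lost peaks, the 10 of highest and lowest net count among genes with 20 or more peaks, the 8 strongest gained and lost peaks, the 10 strongest gained and lost starts, 6 pairs per direction of width and rank above percentile 50 of both lists, and the 2 members per gene list with most gained and most lost peaks. In the text some of these are given by range or not reported here. The members and lists were chosen with earlier results of these data known. Functions were checked on simulated peaks. Scripts ran under matplotlib 3.10.9, pandas 2.3.3, numpy 2.4.6 and Python 3.11.15.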

Additional observations from a re-analysis of the deposited data

Results flagged for a closer look

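The genes with most gained or lost peaks and the measures over all peaks were searched for opposite directions on AsiDNA and without it, and 4 such cases are given here. They are not the only ones: of 474 genes with 20 or more peaks and a negative net count on AsiDNA, 240 were also negative without it. None of these differences was tested, since each group has 1 list. WWOX had a gained minus lost count of −9 on AsiDNA and 2 without it. CDH13 had −6 on AsiDNA and 10 without it. The median log2 width ratio of shared peaks was −0.056 on AsiDNA and 0.021 without it. The ratio of gained to lost peaks was 0.859 on AsiDNA and 1.34 without it, where the combination list had 134865 peaks and the AsiDNA list 138273, and the belinostat list had 138937 and the vehicle list 130318.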

How the results depend on the processing

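Gained and lost numbers stayed within 1.5 times under every alternative tried, from 20264 to 30276 gained and from 21974 to 33684 lost, and lost exceeded gained in each. The median log2 width ratio was −0.059 with −log10 q of 5 or more. The share of pairs past 20 points, 27.1%, was 28.9% with −log10 q of 5 or more and 25.3% when ranked by −log10 q. Of the 10 genes with most gained peaks, 5 stayed among the 10 with a margin of 50 kb and 6 with −log10 q of 5 or more, where 6 of the 10 with most lost peaks stayed. The belinostat list overlapped 68.2% of gained peaks with −log10 q of 5 or more and 60.5% when 50% of the shorter peak had to overlap, against 21.96% and 23.1% of lost peaks. The chromosome 19 ratio of 1.29 was 1.94 with −log10 q of 5 or more and 1.47 with lists of equal length. The cause of these shifts was not tested. All 80 net counts of the 20 named genes over 4 alternatives kept their sign. Leaving out windows with no protein-coding gene, and starts with only part of a peak gained or lost, were added after seeing the data. No paired analysis was possible because each group has 1 list, and no library could be left out for the same reason. Depth is unknown, so a region not listed may be open below the caller's threshold.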
